A study of Homo sapiens with 40 samples.

Results

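Acetylation of histone H3 at lysine 27 (H3K27ac) was examined at promoters that lie in GC-poor DNA, in the human beta-cell line EndoC-βH3. A promoter peak was an H3K27ac peak that overlapped a window of 2000 bp on either side of a start site of a protein-coding transcript (GENCODE 44). It was kept if it was under 10000 bp wide, overlapped none of the enhancers that the authors listed for either cell state, and had a GC content under 50% in the 1000 bp at its centre (hg38). Of 51489 H3K27ac peaks, 14007 lay at promoters, 13538 of these were under 10000 bp wide and 12437 were also outside the listed enhancers. The GC threshold kept 2309 of them, which is 18.6% of these promoter peaks and 4.48% of all H3K27ac peaks. They are called members here, and the other 10128 peaks that met every condition but the GC threshold are called GC-rich promoter peaks.

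EndoC-βH3 cells descend from a human fetal pancreas and carry the SV40 large T antigen and telomerase reverse transcriptase, which a tamoxifen-inducible Cre recombinase (CreER) can excise. The labels give the genotype of all libraries as WT. Control cells kept the transgenes and served as the non-senescent state, and the senescent state followed 3 weeks of 4-hydroxytamoxifen. H3K27ac was measured by chromatin immunoprecipitation and sequencing (ChIP-seq) in 3 libraries of each state, among 40 libraries in all that also covered CTCF, H3K4me1, Rb and inputs. All libraries came from a single cell line, and whether replicates were separate cultures is not stated in the labels.

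The deposited tables give each peak a single level, the authors' mean normalized read count, with no value per library. It is read here as the mean over the 6 H3K27ac libraries, although the tables do not state which libraries entered it. The level of a member in senescent and in non-senescent cells, its spread between replicates and the depth of each library are therefore not reported here, and no statistical test was made. The mean counts summed to 19239499 over all H3K27ac peaks and to 1398245 over the members. The comparisons below describe this pooled level, the positions of peaks and DNA sequence, and the CTCF and Rb regions set beside them came from other libraries.

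H3K27ac is deposited by the acetyltransferases p300 and CBP and marks active promoters and enhancers. Most human promoters lie in CpG islands, stretches rich in G, C and the CpG dinucleotide, whose chromatin is often open in many cell types. Promoters outside CpG islands more often belong to tissue-specific or strongly regulated genes, and more of them carry a TATA box, which sets the position of the start site. Replication-dependent histone genes are a textbook case of promoters with a TATA box.

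Sequences of a few promoters show what the members look like. They are the bases before the RefSeq start site (GRCh38.p14, strand of the gene), in lower case. Matches to the motifs searched below are in capitals, on either strand except for the TATA box. TATAAA is in capitals only on the strand of the gene and within the distance from the start searched below. Other copies of these letters, as in DNAJC12 and on the other strand in H2BC5, stay in lower case. H2BC5, which codes for a core histone H2B, shows the promoter of a replication-dependent histone gene (chr6:26157871-26158120, plus strand). Its capitals mark a TATA box (TATAAA) 28 bases before the start and 4 CCAAT boxes, 2 of them read on the other strand as ATTGG. They also mark TTTGAA, the letters searched for the cell cycle homology region. Whether a match acts as such an element was not tested.
H2BC5: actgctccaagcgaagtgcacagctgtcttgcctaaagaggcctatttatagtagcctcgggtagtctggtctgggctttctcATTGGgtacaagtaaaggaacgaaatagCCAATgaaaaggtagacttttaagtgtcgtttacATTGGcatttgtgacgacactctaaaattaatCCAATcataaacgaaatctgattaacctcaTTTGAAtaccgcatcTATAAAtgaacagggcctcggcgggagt

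G6PC2, the islet-specific glucose-6-phosphatase, and IAPP, the islet amyloid polypeptide that beta cells secrete with insulin, stand for beta-cell genes. The G6PC2 sequence (chr2:168901041-168901290, plus strand) holds a TATA box 29 bases before the start, a CCAAT box and the E-box CAGATG. In the IAPP sequence (chr12:21372652-21372901, plus strand) only TTTGAA matched, on the other strand.
G6PC2: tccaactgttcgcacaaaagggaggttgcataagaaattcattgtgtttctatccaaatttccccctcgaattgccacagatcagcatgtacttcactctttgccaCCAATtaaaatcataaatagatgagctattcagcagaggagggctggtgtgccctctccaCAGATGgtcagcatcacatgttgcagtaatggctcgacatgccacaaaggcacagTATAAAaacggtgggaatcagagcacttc
IAPP: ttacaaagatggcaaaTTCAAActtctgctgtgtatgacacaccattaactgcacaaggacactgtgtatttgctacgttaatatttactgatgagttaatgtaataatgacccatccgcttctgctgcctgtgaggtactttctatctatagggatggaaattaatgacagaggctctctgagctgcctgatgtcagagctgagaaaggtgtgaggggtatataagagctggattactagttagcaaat

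CDK1, the kinase that drives entry into mitosis, is shown because a senescence-specific Rb region covers 138 of its 250 bases (chr10:60778081-60778330, plus strand). Its capitals mark a forkhead motif (TGTTTAC on the other strand), TTTGAA 161 bases before the start, a CCAAT box and a GC box (GGGCGG on the other strand). IFIT1, an interferon-induced antiviral gene, is shown for its 2 interferon-response motifs (ISRE, the interferon-stimulated response element, on the other strand, at 116 and 103 bases before the start). The IFIT1 sequence (chr10:89392373-89392545, plus strand) stops 77 bases before the RefSeq start, where an annotated untranslated exon begins.
CDK1: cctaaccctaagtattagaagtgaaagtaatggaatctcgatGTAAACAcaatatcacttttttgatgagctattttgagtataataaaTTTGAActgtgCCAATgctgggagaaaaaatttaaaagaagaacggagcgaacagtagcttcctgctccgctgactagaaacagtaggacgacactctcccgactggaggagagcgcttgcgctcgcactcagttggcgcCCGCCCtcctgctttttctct
IFIT1: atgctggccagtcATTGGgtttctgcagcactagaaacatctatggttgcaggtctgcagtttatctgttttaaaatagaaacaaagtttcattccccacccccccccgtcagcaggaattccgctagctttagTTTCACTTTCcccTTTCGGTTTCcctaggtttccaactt

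DNAJC12, a co-chaperone, belongs to the member with the lowest GC content, and ARRDC3, an arrestin-domain protein, to the member with the highest H3K27ac level. In DNAJC12 (chr10:67838189-67838438, minus strand), 34.8% of the bases shown are G or C, and capitals mark CACGTG, the forkhead motif and CCAAT. In ARRDC3 (chr5:91383318-91383567, minus strand) 65.6% are G or C, and capitals mark CCAAT and 2 GC boxes, although the centre of its H3K27ac peak is GC-poor.
DNAJC12: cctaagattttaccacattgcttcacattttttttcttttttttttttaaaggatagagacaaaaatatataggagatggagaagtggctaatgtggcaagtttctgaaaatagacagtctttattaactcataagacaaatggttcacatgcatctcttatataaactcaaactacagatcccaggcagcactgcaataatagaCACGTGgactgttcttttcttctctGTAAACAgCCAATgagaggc
ARRDC3: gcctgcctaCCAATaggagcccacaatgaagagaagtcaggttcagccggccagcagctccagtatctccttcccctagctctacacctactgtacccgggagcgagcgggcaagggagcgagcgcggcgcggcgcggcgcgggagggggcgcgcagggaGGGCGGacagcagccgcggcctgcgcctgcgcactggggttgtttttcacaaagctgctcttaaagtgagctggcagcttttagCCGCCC

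Where the start site lay relative to the peak split the members into 3 groups of similar size. Where several starts lay inside, GC content was read at the start of any transcript nearest the peak centre. In 759 members (32.9%) a start site lay inside the peak and the 1000 bp around it were GC-poor as well. In 771 members (33.4%) the start lay inside the peak in GC-rich DNA. In 779 members (33.7%) the promoter window reached the peak but no start site lay inside it. This split uses positions and sequence only, and was chosen after the data were seen. In the first group the start nearest the peak centre is thus GC-poor, but the same peak can hold other starts in GC-rich DNA. In the shorter windows around RefSeq starts used for motifs below, GC content was 43.3% at BTBD3 in this group. It was 74.3% at FBXO31 and 69.3% at a start of MGAT1, also in this group. Which start the mark belongs to was not tested. The label of GC-poor promoters does not describe the starts read in the second group.

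The groups differed in H3K27ac level. The median mean count was 231 in members with a GC-poor start inside, 1064 in members with a GC-rich start inside and 32.7 in members with the start outside. Their first to last quartiles ran from 68.7 to 663, from 624 to 1592 and from 20.6 to 69.4, so the latter pair of groups did not overlap over these ranges. Over all members the median was 232, against 450 in GC-rich promoter peaks and 119 over all H3K27ac peaks. Of the members with the start outside, 651 (83.6%) had a mean count under 100, and of those with a GC-rich start inside, 13 (1.69%) did.

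**Figure D1:**
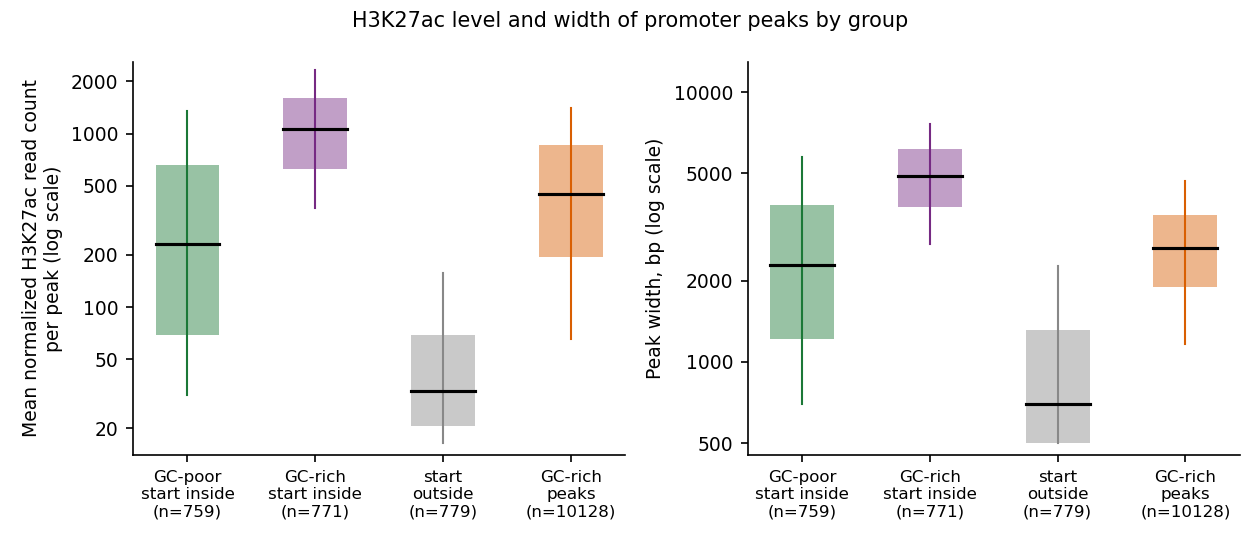
H3K27ac level (left, authors' mean normalized read count, log scale) and peak width (right, log scale) of the 3 groups of members and of GC-rich promoter peaks. Black lines are medians, boxes span the first to the last quartile and thin lines the tenth to ninetieth percentile over peaks, not over replicates. Members with a GC-rich start inside are the highest (median 1064) and members with the start outside the lowest (median 32.7).

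Width moved with level across these groups. Median widths were 2281 bp, 4877 bp and 696 bp in the same order, and 2641 bp in GC-rich promoter peaks. Per 1000 bp of peak, the median mean count was 94.7 with a GC-poor start inside, 213 with a GC-rich start inside, 45.3 with the start outside and 163 in GC-rich promoter peaks. The order of the groups was the same by count per 1000 bp. This count itself rose with width, from a median of 41.3 in members under 1000 bp wide to 238 from 5000 to 10000 bp.

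The 3 groups also differed in the kind of start site. A start of a canonical transcript, the representative transcript of a gene, lay inside 415 of the 759 members with a GC-poor start inside (54.7%), inside 726 of the 771 with a GC-rich start inside (94.2%) and inside 88.3% of GC-rich promoter peaks. In these 415 members of the group with a GC-poor start inside, the median mean count was 397. Their canonical start need not be the start where GC content was read. In the other 344 members with a GC-poor start inside, which hold only starts of alternative transcripts, it was 106. Of the members with the start outside, 238 (30.6%) had their start site inside another H3K27ac peak, and these had a median mean count of 26.7.

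Members with a GC-rich start inside were defined by a GC-poor centre and a GC-rich start, so their centres had to lie away from the start and the values here describe that choice. The peak centre lay a median of 911 bp from the start site, against 209 bp in members with a GC-poor start inside and 172 bp in GC-rich promoter peaks. In 585 of these 771 members (75.9%) the centre lay downstream of the start, inside the transcribed part of the gene, against 57.2% and 63.6%. The CpG observed over expected ratio, which is low where methylated CpGs have been lost over evolution and higher in CpG islands, had a median of 0.437 at the centre of these peaks and of 0.778 around their start sites. In members with a GC-poor start inside it was 0.285 at the centre and 0.304 around the start, and in GC-rich promoter peaks it was 0.764 and 0.784.

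Along the GC scale, the members with the highest GC content had the highest typical level. The median mean count was 255 at a GC content of 25 to 30% (16 peaks), 190 at 30 to 35%, 127 at 35 to 40%, 145 at 40 to 45% and 396 at 45 to 50%. Above the threshold it was 478 at 50 to 55%, 478 at 55 to 60%, 480 at 60 to 65% and then 437, 386, 375 and 274 in the next bins of 5 points up to 85%. The first quartile moved more than the last, from 30.4 at 35 to 40% to 183 at 50 to 55%, while the last was 873 and 932 in these bins. The share of peaks with a start site inside was 57.4% at 35 to 40% and 87.1% at 50 to 55%. Peaks within 1 point of the threshold were alike in level on both sides, with medians of 462 below it (194 members) and 468 above it (256 peaks).

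**Figure D2:**
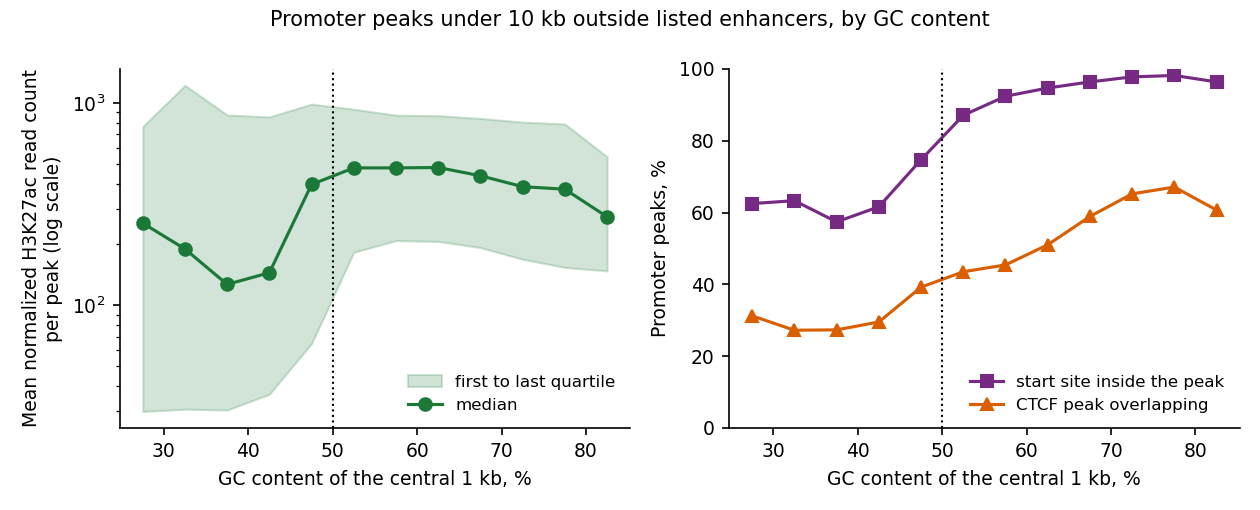
Promoter peaks by GC content of their central 1000 bp in bins of 5 points, plotted at the bin centre, with the 50% threshold as a dotted line. The left panel shows the median H3K27ac mean count and its quartiles (log scale), with the lowest median, 127, at 35 to 40%. The right panel shows the share of peaks with a start site inside and with an overlapping CTCF peak, which was 87.1% and 43.5% just above the threshold.

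The width and enhancer conditions also set which GC-poor promoters were described. Of 3152 GC-poor promoter peaks of any kind, 234 were left out for a width of 10000 bp or more, and their median mean count was 3364. A further 609 narrower ones overlapped a listed enhancer, with a median of 409. The 32 members of 9000 bp or more had a median mean count of 2343, and the 31 GC-poor promoter peaks from 10000 to 11000 bp outside the listed enhancers had a median of 2903. Among the widest peaks left out were those of NKX2-2 (28498 bp, GC content 43.1%), NEUROD1 (14907 bp, 43.0%) and PAX6 (30266 bp, 45.9%), transcription factors of the islet.

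At matched width, the medians of members and GC-rich promoter peaks were closest from 5000 to 10000 bp and furthest apart from 1000 to 2000 bp, where members were lower. Between 5000 and 10000 bp, the median mean count was 1559 in 478 members and 1572 in 786 GC-rich promoter peaks. Between 2000 and 5000 bp it was 543 and 600, between 1000 and 2000 bp 83.8 and 131, and under 1000 bp 24.2 and 26.5. Within the class from 2000 to 5000 bp the groups of members still differed, with 434 for a GC-poor start inside, 743 for a GC-rich start inside and 200 for the start outside. The classes were filled unevenly: 28.7% of members and 8.17% of GC-rich promoter peaks were under 1000 bp wide, and 20.7% and 7.76% were 5000 bp or wider.

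**Figure D3:**
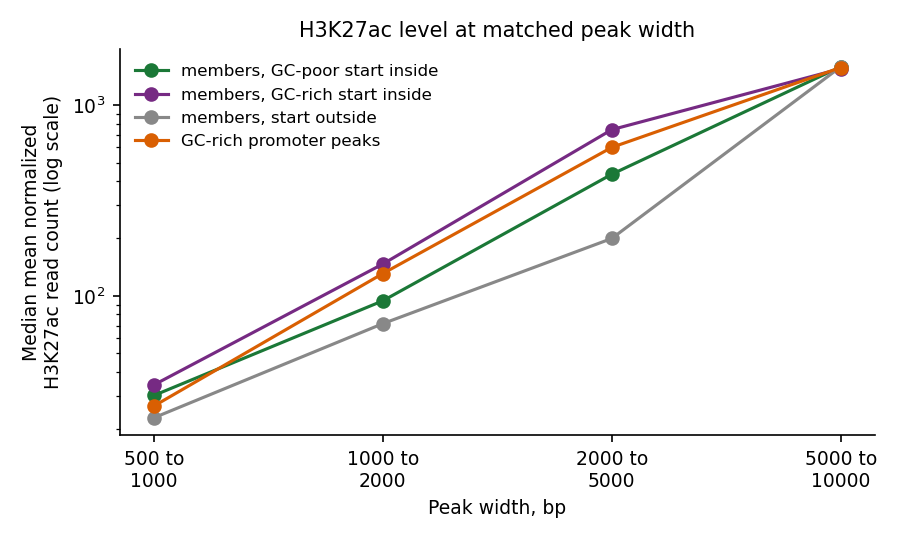
Median H3K27ac mean count (log scale) in 4 classes of peak width, for the 3 groups of members and for GC-rich promoter peaks. The lines meet at 5000 to 10000 bp, where the medians lie between 1550 and 1586, and they lie furthest apart at 2000 to 5000 bp, from 200 to 743. Only 6 members with a GC-rich start inside are under 1000 bp wide and only 9 with the start outside are over 5000 bp.

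The 10 members with the highest mean counts all held a GC-rich start. Among them were ARRDC3 (7206), RPH3AL (5801), MARCKS (5769), NSD3 (5131), RPRD2 (4701), PRKAR1A (4685), BCL2L1 (4510), LENG8 (4403) and GZF1 (4272). RPH3AL, also known as Noc2, is an effector of Rab proteins in hormone secretion, MARCKS is a substrate of protein kinase C, PRKAR1A is a regulatory subunit of protein kinase A and BCL2L1 codes for the survival protein BCL-XL. The ARRDC3 peak (chr5:91377640-91385409) was 7770 bp wide with a GC content of 42.1% at its centre and 50.4% around the start site, close to the value that separates the groups. It also had the highest level per 1000 bp, 927. The MARCKS peak was the one of these 10 with the highest CpG ratio at its centre, 1.03, at a GC content of 48.3%.

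By level per 1000 bp of peak, narrower members came forward. CFC1, a co-receptor of Nodal signalling, had 798 over a peak of 983 bp with the start outside. UFC1, the conjugating enzyme of the ubiquitin-like modifier UFM1, had 755 over 2709 bp, with a GC content of 48.5% around its start site inside the peak. TOR1AIP1, a protein of the inner nuclear membrane, had 711, and the peak of H2AC19 and H3C15 had 594. CFC1 and these histone genes have near-identical copies nearby on the same chromosome, and how reads that fit both copies were counted is not stated, so their levels are uncertain.

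Among members whose start nearest the centre was GC-poor, the highest levels belonged to genes of several functions. These genes were chosen after their values were seen. BTBD3 had a mean count of 4189 (GC content 36.8% at the centre and 41.3% around the start), MBNL2, a regulator of splicing, 3702, GRIA4, an AMPA receptor subunit, 3360, and NT5C3A, a pyrimidine nucleotidase, 3355. They were followed by MKKS (3319), ELAVL4, an RNA-binding protein of neurons (3207), FBXO31 (3040), ESRRG, an orphan nuclear receptor (2890), MGAT1 (2840) and EYS (2688). Their widths ran from 7462 bp for MBNL2 to 9841 bp for EYS. In the group with the start outside, CNBD2 was highest with 3522, its peak centre 5316 bp from the start, followed by FBXO46 with 2537.

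The lowest GC content was found in DNAJC12 (25.1%, mean count 244), FASTKD1 (28.2%, 635), FBXW7 (28.6%, 465), C2CD5 (28.7%, 17.7) and UGT2B7 (28.7%, 340). At the other end, with a GC content of 49.9%, lay TSPAN13 (mean count 517), CAPZB (53.4), H2AC8 with H2BC8 (1336), CNBD2 (3522) and EPB41L1 (41.5). FASTKD1 acts on mitochondrial RNA, FBXW7 is the substrate receptor of a ubiquitin ligase and UGT2B7 is a glucuronosyltransferase. The lowest levels were 9.73 at SLC38A2, 10.4 at WWP2, 10.5 at TLE4 and 11.2 at both FGL1 and PDZRN3, each in a peak of 500 bp. SLC38A2, an amino acid transporter, and PDZRN3 had their start site outside the peak. With so few reads per library, these levels are set by few counts and their order was not tested.

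Replication-dependent histone genes were the list with the largest share of genes with a member, counted over all genes of a list. These genes are short, lack introns and are transcribed in S phase. Of 69 such genes in the annotation, 36 (52.2%) had a member at a promoter, against 2213 of 19663 protein-coding genes (11.3%). Counted over genes with any H3K27ac peak at a promoter, the shares were 61.0% and 16.9%, and by that count olfactory receptor genes stood higher, on few genes (8 of 12). The genes shared 22 peaks, 18 of them on chromosome 6, and 11 of these peaks covered more than 1 histone gene, so they are not independent. Of the 22 peaks, 15 held a GC-poor start, 5 a GC-rich start and 2 no start.

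H3K27ac at the histone genes spanned a wide range of levels. The 22 peaks had mean counts from 115 to 1866 with a median of 830, and a median of 208 per 1000 bp. The highest was at H4C5 (1866, chr6:26203054-26207294), followed by the peak shared by H1-4 and H2BC5 (1709, chr6:26154880-26160502), H3C6 (1551) and the pair H2AC8 and H2BC8 (1336). A single peak covered H3C4, H2AC7 and H2BC7 (1311), another covered H3C7, H2BC9 and H4C7 (1157), and yet another covered H3C10, H2AC13 and H2BC13 (1150). The lowest were H1-3 (115), H2BC6 (136) and H4C9 (178). A CTCF peak overlapped 12 of the 22, and an Rb region overlapped 1, at H4C6 (575).

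Many of the histone promoters held a TATA box. Of 32 RefSeq promoters of these genes whose start lay in a member, 16 (50.0%) held TATAAA from 40 to 20 bases before the start and 29 (90.6%) held CCAAT, as in the H2BC5 sequence above. Over all histone promoters of the list, inside members or not, 36 of 68 (52.9%) held the TATA box and 58 (85.3%) CCAAT. Histone genes made up 15 of the 51 genes with a TATA box at a start inside a member.

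Genes of islet hormones and the secretory granule came next among the lists that bear on beta cells. Of 34 genes, 9 (26.5%) had a member, against 11.3% over all genes. Among genes with a promoter peak the shares were 31.0% and 16.9%. Stress response genes had a similar share (27.8% of the list). Of the 9 genes, 6 had a member with a GC-poor start inside. SCG5, the chaperone of prohormone convertase 2, had a mean count of 1507 (GC content 36.2%), PAM, which amidates peptide hormones, 1266 (39.0%), SCG3 and SCG2, granins of the secretory granule, 1203 (32.1%) and 417 (37.2%), and TTR, transthyretin, 1141 (41.0%). PCSK1N, an inhibitor of prohormone convertase 1, had 828, ERO1B, an oxidase of the endoplasmic reticulum, 534, IAPP 204 and CADPS, a factor of vesicle priming, 12.9.

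Of 32 genes of glucose sensing, channels and receptors, 4 (12.5%) had a member, close to the share of all genes. CACNA1C, a calcium channel subunit, had a mean count of 1607 and ABCC8, the sulfonylurea receptor, 532, both with a GC-rich start inside. G6PC2 had 350 at a GC content of 34.8%, and SLC2A2, the glucose transporter GLUT2, 255 at 42.0%. Of 36 islet transcription factors, 4 (11.1%) had a member, among them ESRRG (2890), RFX3 (17.4) and GLIS3 (15.0). The peaks of RFX3 and GLIS3 were 500 bp wide, and that of RFX3 held no start site.

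The beta-cell identity of the cells was checked on 14 marker genes. All 14 had an H3K27ac peak at a promoter, 10 of them a peak of 10000 bp or more, and 3 had a member, IAPP and ABCC8 among them. The INS peak was 13361 bp wide with a mean count of 3078 and a GC content of 65.7%, and so was no member. Promoter peaks were found at 2 of 21 acinar markers, 6 of 12 duct markers and 2 of 22 mesenchymal, endothelial and immune markers, and members at none of these genes. Over all 19663 protein-coding genes, 13059 (66.4%) had a promoter peak and 11.3% a member.

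Lists on proliferation and senescence were mixed. Of 69 cell cycle and mitosis genes, 14 (20.3%) had a member, or 21.2% of those with a promoter peak, against 11.3% and 16.9% over all genes. The highest were HMMR (2106), CKS2, a subunit of cyclin-dependent kinases (2093), NDC80, a kinetochore protein (1099), CDK4 (866) and KIF20A, a mitotic kinesin (774). KIF20A, CDK1 (408), CDC25C (248) and PLK4 (90.2) had a GC-poor start inside. Of 32 p53 targets and cell-cycle inhibitors, 6 (18.8%) had a member, with 30 of the 32 having a promoter peak, and in all 6 the start was inside and GC-rich. They were CDKN2A (2941), TP53INP1 (2604), CDKN2B, which codes for p15 (791), CCNG1 (570), AEN (312) and CDKN1A, which codes for p21 (282). The CDKN2A peak (chr9:21989862-21997537) lay at the upstream start sites of the gene, which give p14ARF, and the start of the p16 transcript lay outside it. None of 31 secretory senescence factors had a member, and 8 of them (25.8%) had an H3K27ac peak at a promoter, against 66.4% of all genes.

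Housekeeping lists also held members, set here beside 11.3% of all genes and 16.9% of those with a promoter peak. Of 86 cytosolic ribosomal protein genes, 19 (22.1%, or 22.6% of those with a promoter peak) had a member. The highest were RPL15 (1947), RPL14 (1767), RPL24 (1478), RPS27 (1227) and RPL4 (1154). Of 78 mitochondrial ribosomal protein genes, 12 (15.4%) had a member, led by MRPS18B (3424), MRPL49 (1981), MRPL1 (1426), MRPS9 (1346) and MRPS33 (902), and of 50 splicing factor genes 10 had one, led by SRSF3 (2046), SRSF11 (1298), SNRPA (1291), HNRNPC (1002) and HNRNPA1 (127). Of 36 stress response genes, 10 (27.8%, or 28.6% of those with a promoter peak) had a member. The highest of these were XBP1, a transcription factor of the unfolded protein response (2706), ATF6, a sensor of that response (1696), HSP90AA1 (1223), TXNRD1 (1021) and SEL1L (657), and 6 genes of this list had a member with no start inside.

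Interferon-stimulated genes had members at the background share. Of 61 genes, 6 (9.84%) had one, and their median level was 93.1. USP18, which removes the modifier ISG15, had 1397, RSAD2, the antiviral protein viperin, 195, RIGI, a sensor of viral RNA, 139, IFIT1 47.4 and OAS1, an oligoadenylate synthetase, 36.5. All but RIGI and IFIT2 (23.2) held a GC-poor start. Of 22 immediate early genes, 1 (4.55%) had a member, NR4A3 (2083). Zinc finger (ZNF) genes lay under the background, with 28 of 508 (5.51%), or 6.44% of those with a promoter peak. For some lists the direction depended on the denominator. Mitochondrial ribosomal protein genes stood at 15.4% by both counts, against 11.3% and 16.9% over all genes. Olfactory receptor genes had a member in 8 of 381 (2.10%), but only 12 of them had an H3K27ac peak at a promoter, and 66.7% of these 12 had a member. Liver and plasma protein genes had one in 2 of 29 (6.90%), TTR (1141) and SERPINA1 (170). That is 15.4% of those with a promoter peak, and both shares lay under those of all genes.

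**Figure D4:**
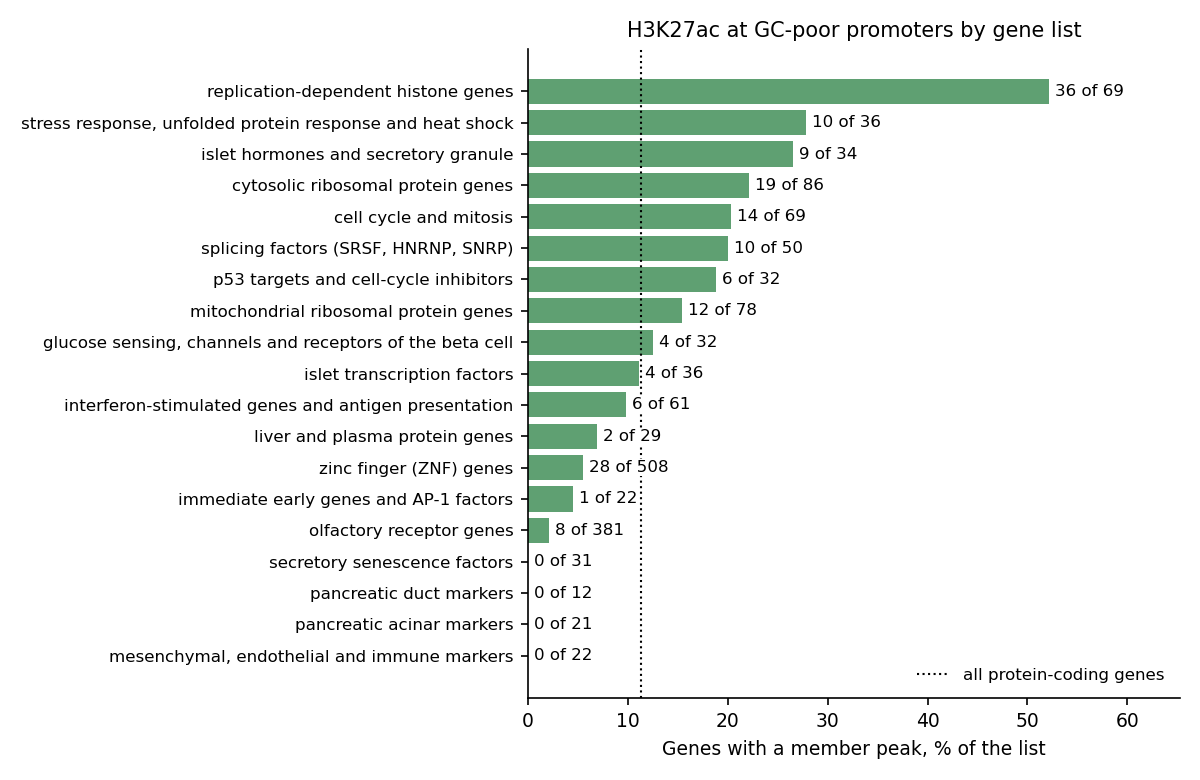
Share of the genes of each list that had a member at a promoter (bars, with the numbers beside them), and the same share over all protein-coding genes, 11.3% (dotted line). Replication-dependent histone genes reach 52.2%, and 4 lists have no gene with a member. Genes in a list can share a peak.

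Other readouts were compared at the members by position. CTCF is a DNA-binding protein that anchors chromatin loops, and a CTCF peak overlapped 760 members (32.9%, 95% Wilson interval 31.0% to 34.9%, counting error only) and 53.1% of GC-rich promoter peaks (52.2% to 54.1%). The share was 29.4% with a GC-poor start inside, 57.8% with a GC-rich start inside and 11.7% with the start outside. Width differed between these groups and its part in the result was not tested further than by class. By the authors' description, CTCF peaks without a CTCF motif had been removed. These shares therefore describe CTCF peaks with the motif, and the part of this filter in the difference by GC content was not tested. In the class from 5000 to 10000 bp the shares were 66.1% in members and 72.6% in GC-rich promoter peaks, and under 1000 bp 12.7% and 37.8%. The 886 CTCF peaks in members had a median distance of 354 bp from the nearest start site, and 505 (57.0%) lay within 500 bp.

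The median mean CTCF count of members with a CTCF peak, taking the highest peak of each, was 66.2, against 72.4 in GC-rich promoter peaks. Among members with the start outside it was 113. The highest CTCF peaks lay in members at BCL2L1 (mean CTCF count 1208), PSMD1, a proteasome subunit (1141), RBM17, a splicing factor (1115), RGMB, a co-receptor of bone morphogenetic proteins (1001), and AGFG1 (931). Of these 5, RBM17 alone had its start outside the peak, and its H3K27ac mean count was 88.0, against 1346 to 4510 at the others.

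Rb, the retinoblastoma protein, represses E2F target genes when it is freed from large T antigen, and the authors' list gives regions bound more in senescent than in non-senescent cells. Such a region lay in 32 members (1.39%, 95% Wilson interval 0.983% to 1.95%) and in 213 GC-rich promoter peaks (2.10%, 1.84% to 2.40%). Of the 32, 23 held a GC-rich start, 8 a GC-poor start and 1 no start. The Rb regions lay a median of 350 bp from the nearest start site, 23 of them within 500 bp. They were GC-rich in most cases, with a median GC content of 65.8% and a GC content of 50% or more in 26 of 32, although the centres of these H3K27ac peaks were GC-poor.

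Members with an Rb region had high H3K27ac levels. The lowest was at MNAT1, a subunit of the CDK-activating kinase (398), and the median was 1699, against 232 over all members. The median was 1559 over all members from 5000 to 10000 bp wide, and the 10 named next were 5487 to 9557 bp wide. The part of width in this difference was not tested. The 10 highest were GZF1 (4272), RCAN3, a regulator of calcineurin (4152), KCTD3 (4021), NT5C3A (3355), SLC19A2, a thiamine transporter (2812), CCT8, a chaperonin subunit (2756), FBXO46 (2537), AASDHPPT (2520), SOGA3 (2411) and GLUL, glutamine synthetase (2330). Cell cycle genes among the 32 were CDK1, whose Rb region (chr10:60778193-60778461, GC content 57.2%) lay 4 bp from a start site, and CKS2, whose Rb region (68.6%) lay 666 bp from one.

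Motifs were counted in 300 bases around RefSeq start sites, from 250 before to 50 after the start, on both strands except for the TATA box. Of 21574 promoters of protein-coding genes, 1541 had their start in a member, in 1123 of the 2309 members, and 449 of these 1541 windows were themselves GC-poor. Of those 449, 7.35% held TATAAA from 40 to 20 bases before the start, against 1.74% of the 1092 member promoters with a GC-rich window and 3.09% of all promoters. The GC box GGGCGG was in 8.91% of the 449, 68.2% of the 1092 and 56.8% of all promoters. CCAAT, bound by NF-Y, was in 41.4%, 36.5% and 34.8%. The promoters with GC-rich windows in members thus held these motifs at shares near those of promoters in GC-rich peaks, where TATAAA was found in 1.11%, GGGCGG in 74.3% and CCAAT in 35.0%.

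Promoters with a GC-poor window inside members were then set beside those with a GC-poor window and no H3K27ac promoter peak at the start (3212 promoters). The TATA box was found in 33 of 449 and 257 of 3212, and similar shares held CCAAT (41.4% and 42.3%) and the E-box CAGATG, which NEUROD1 binds (21.2% and 19.8%). Promoters of histone genes made up 16 of the 52 member promoters with a TATA box, counting windows of either kind. How many of these 16 were among the 33 was not counted, so the part of histone genes in these shares is not known. The HNF1 motif GTTAATNAT was in 19 of 449 (4.23%) inside members and in 64 of 3212 (1.99%) without a peak, and the forkhead motif TGTTTAC in 8.69% and 5.57%. HNF1 and forkhead factors are regulators of pancreas and liver genes. ELAVL4, TM4SF4, LIPC and GAS2 were among the genes with the HNF1 motif, chosen after their motifs were seen. The ETS motif CCGGAAG was in 4.45% and 1.03%, YY1 (AANATGGCG) in 2.23% and 0.374%, NRF1 (GCGCATGC) in 1.34% and 0.342% and the cyclic AMP response element TGACGTCA in 2.67% and 0.467%. The AP-1 motif TGANTCA went the other way, with 8.69% and 13.9%. TTTGAA was in 29.2% and 33.1%, the interferon-stimulated response element in 8.69% and 6.91%, CACGTG in 5.12% and 2.74% and the E2F motif TTTGGCGC in 0.223% and 0.125%. Among 443 promoters with a GC-poor window and the start in a GC-rich peak, ETS was in 10.8%, YY1 in 4.74% and NRF1 in 1.35%. For these motifs, shares above those without a peak were thus not particular to members. In the same 443 promoters HNF1 was in 2.26%, the forkhead motif in 5.64%, the cyclic AMP response element in 1.13% and AP-1 in 10.2%. Histone promoters made up 5 of the 56 member promoters with the cyclic AMP response element, again counting windows of either kind. Short motifs match by chance, and windows of neighbouring starts overlap. The median GC content of these GC-poor windows was 43.3% inside members, 42.0% without a peak and 46.0% in GC-rich peaks.

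**Figure D5:**
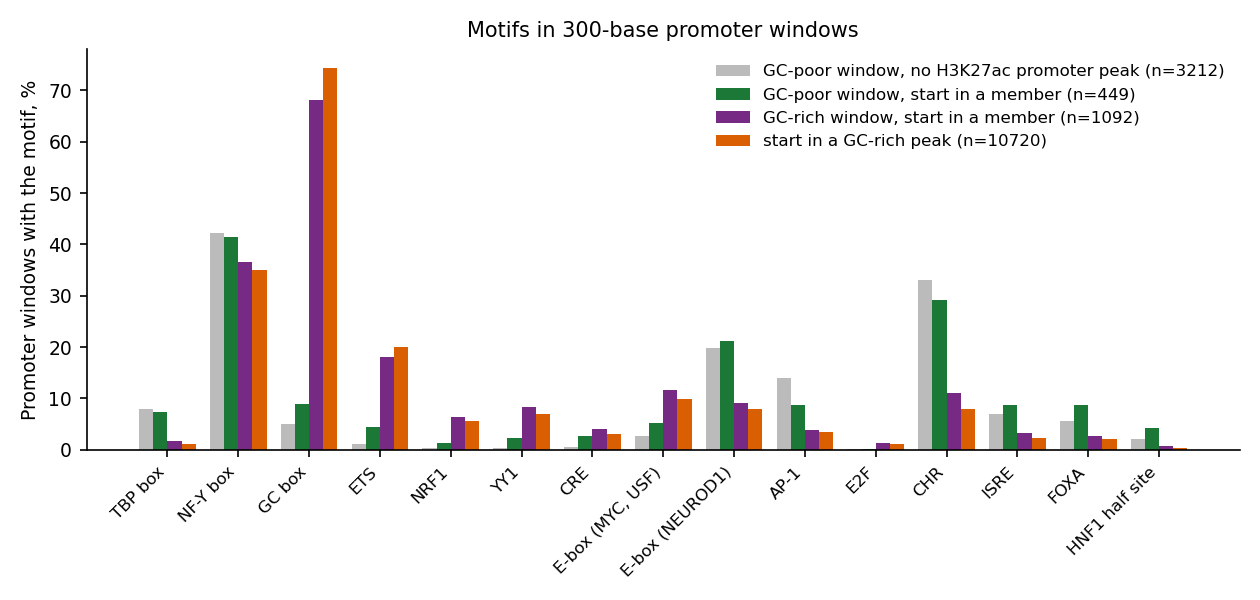
Share of 300-base promoter windows that hold each of 15 motifs, in promoters with a GC-poor window and no H3K27ac promoter peak, in promoters with the start in a member split by the GC content of the window, and in promoters with the start in a GC-rich peak. The TBP box is the TATA box and the NF-Y box the CCAAT box. The GC box goes from 8.91% in GC-poor to 68.2% in GC-rich windows of members, and the TBP box from 7.35% to 1.74%.

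Members also differed from GC-rich promoter peaks in their neighbourhood. The 2000 bp windows around start sites of different genes on both strands were overlapped by 180 members (7.80%), against 13.4% of GC-rich promoter peaks. The starts need not lie inside the peak, and these genes need not point away from each other. The share was 16.1% with a GC-rich start inside, 6.06% with a GC-poor start inside and 1.28% with the start outside. The nearest listed enhancer lay a median of 38790 bp away for non-senescent and 41741 bp for senescent cells, against 56921 bp and 60880 bp for GC-rich promoter peaks. Of the 2213 genes with a member, 753 (34.0%) also had a GC-rich promoter peak at another of their start sites or in the same window. This held for 65.0% of genes with a member that had the start outside, for 35.1% with a GC-poor start inside and for 11.6% with a GC-rich start inside.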

How the data were processed

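Per the study's methods, the authors aligned the reads to hg38 with Bowtie2 and called peaks against inputs (HOMER for H3K27ac, MACS2 for CTCF). Removal of duplicates is stated for H3K27ac, H3K4me1 and Rb. CTCF peaks were filtered for the CTCF binding motif. MACS2 with non-senescent libraries as control gave the Rb regions of senescent cells, with a threshold on p-values not adjusted for multiple tests. Tool versions and the way replicates were merged into peaks are not given in the sources used here. The signal used is the deposited mean of read counts per peak divided by size factors, taken as the authors' mean over the libraries of both states, which the tables do not state. The deposited tables hold 10 further columns of the authors' comparison of the states (fold change, its error, test statistic and p-values), which were not used. The region lists hold positions only. Size factors depend on all peaks, and wide peaks collect more reads, so counts per 1000 bp are also given.

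Depth per library is unknown from these tables, no test was possible on 1 value per peak, and libraries were grouped by the labels. Positions were read as zero-based and are printed one-based. All chromosome names were those of hg38 and 0 regions ran past a chromosome end. Overlaps needed at least 1 bp. GC content used pysam 0.24.0. Start sites came from GENCODE 44, and promoter sequences from RefSeq (GRCh38.p14), of which 21574 equalled hg38 letter by letter. Levels were set beside each other as medians and quartiles over peaks, and shares as Wilson intervals. The overlap and sequence functions were checked on simulated data. Alternatives were the promoter window, start sites, GC threshold and place, enhancer overlap, a minimum level of 50 and midpoint overlaps.

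Members were named by the nearest start site. Named were the 10 highest in level and in level per 1000 bp, the 5 lowest and highest in GC content, the 5 lowest in level, the 5 with the highest CTCF peak, up to 10 with an Rb region, up to 5 per gene list and beta-cell markers, of which some values are not reported here. Members and lists were chosen with earlier results of these data known.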

Additional observations from a re-analysis of the deposited data

How the results depend on the processing

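Under the alternatives, 29 medians and shares fell outside the 95% counting interval of the reported value and 8 stayed within it. The number of members, which has no such interval, changed by more than 1.5 times under 4 alternatives and by less under 3. With the values as reported, 2309 members had a median mean count of 232, or 94.3 per 1000 bp. A CTCF peak overlapped 32.9%, an Rb region 1.39% and start-site windows on both strands 7.80%. In the same order, canonical start sites alone gave 1372 members with 661, 168, 44.2%, 2.04% and 12.9%. GC content of the whole peak gave 4299 members with 564, 184, 38.0%, 2.40% and 12.7%. GC content around the nearest start site, chosen after seeing the data, gave 1492 with 87.6, 62.0, 23.7%, 0.737% and 4.22%, and 1311 of the members met this condition. A GC threshold of 45% gave 1361 with 146, 72.6, 28.5% and, for both strands, 5.80%. A minimum mean count of 50 gave 595, 156, 41.8%, 1.95% and 10.3%. A promoter window of 1000 bp gave 460, 129, 37.6% and, for both strands, 9.26%. CTCF midpoints inside the member gave 30.3%. The median level therefore ran from 87.6 to 661 with the choice of start sites and of where GC content was read. No paired analysis was possible because the tables hold 1 mean per peak, and for the same reason no replicate could be left out. Depth limits the 669 members with mean counts under 50 most.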

Other observations

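PRKCH, a protein kinase C, was the gene with the most members, 7, out of 251 genes with more than 1. Its member with the highest level held a GC-rich start and had a mean count of 1602 over 7674 bp. The other 6 had mean counts of 118, 76.5, 25.6, 23.7, 22.3 and 21.4, and a start site lay inside one of them (76.5). Members at olfactory receptor genes, which are silent in most tissues, were found at 8 of 381 genes, of which 12 had any H3K27ac promoter peak. Their mean counts ran from 18.1 at OR4E2 to 174 at OR10H4, and 5 of the 8 held no start site.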
